A study of Rattus norvegicus with 18 samples.

Results

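The stretches described here are the shores of dense unmethylated DNA in the rat genome, defined in tiles of 1000 bp on chromosomes 1 to 20. A core was a tile with at least 40 measured cytosines and a mean methylation level under 10% over 18 rats. A shore was a tile with 3 to 39 measured cytosines lying 1 or 2 tiles away from a core. By this rule 5187 tiles were shores, or 3.52% of the 147493 autosomal tiles with at least 3 measured cytosines. Of these shores, 3738 lay next to a core (distance 1, holding 60413 cytosines) and 1449 lay a tile further out (distance 2, holding 16290 cytosines). The comparison set was the other 129677 autosomal tiles with 3 to 39 cytosines, called other sparse tiles below.

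The assay was reduced representation bisulfite sequencing of hippocampal DNA from adult male Sprague-Dawley rats. The enzyme MspI cuts DNA at CCGG, so that CpG-rich fragments are enriched, and bisulfite turns unmethylated cytosine into a base read as thymine. The labels give Sprague-Dawley as the genotype of every rat and name no engineered allele. In the kindling model, 4 sham rats were compared with 4 rats labelled with 3 class V seizures, which came from repeated electrical stimulation through electrodes in the hippocampus. In the systemic kainic acid model, 7 sham rats were compared with 3 rats that carried the same label of 3 class V seizures after injections of this glutamate receptor agonist. Tissue was taken 24 hours after the last seizure. The sources used here do not give what the sham rats of each model underwent. Whole hippocampal tissue mixes neurons, glia and vessel cells, whose shares cannot be told apart from methylation within a cell type.

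A CpG island is a stretch rich in CpG that is usually kept free of methylation and often covers the start of a gene. Its shores are the flanks, where CpG density falls and methylation climbs towards the high level of the surrounding genome. In many tissues, shores differ between cell types more often than the islands themselves do. The tiles here were defined by density and level alone and were not matched to annotated islands or genes, because no annotation of the build of the file (rn6) was used here.

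The core level chose the members and is given as a description. The 6356 cores fell into 5592 runs of adjacent tiles, of which 4867 held a single tile and the longest held 4. Cores had a median of 74 cytosines and a mean level of 6.58% ± 0.455 (SD, n = 18 rats). Just inside the level threshold, 1088 dense tiles lay between 9 and 10%, and just outside it 1002 lay between 10 and 11%. Dense tiles at or over 10% that touched a core were neither core nor shore, and these 1130 tiles averaged 14.4%. Shores with 37 to 39 cytosines at distance 1 (175 tiles) averaged 12.9%, with no limit on their level. The 339 tiles of 40 to 42 cytosines under 10%, at any place on these chromosomes, averaged 5.42%. The level limit holds that value down, so the 2 sets are not a like comparison across the threshold of cytosines. At the lower end, shores of 3 or 4 cytosines averaged 41.5% at distance 1 (472 tiles), and the 470 tiles left out for holding 1 or 2 cytosines averaged 49.4%.

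Methylation climbed steeply across the shores. The mean level was 22.98% ± 0.456 (SD, n = 18 rats) at distance 1 and 56.1% ± 0.392 (SD, n = 18) at distance 2. The step between them was 33.1 points ± 0.176 (SD), between 32.9 and 33.5 points in each rat, and upward in 18 of 18 rats (two-sided exact sign-flip permutation test, p = 7.63e-06, the smallest this test can give). That test covers the rats and not the choice of tiles. Beyond the shores the climb slowed, to 66.0% at distance 3, 67.8% at distance 4 and 72.3% at distance 10. Tiles more than 10 tiles from any core averaged 75.95%. The highest rat at distance 2 (56.7%) lay below the lowest rat at distance 3 (65.3%).

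**Figure D1:**
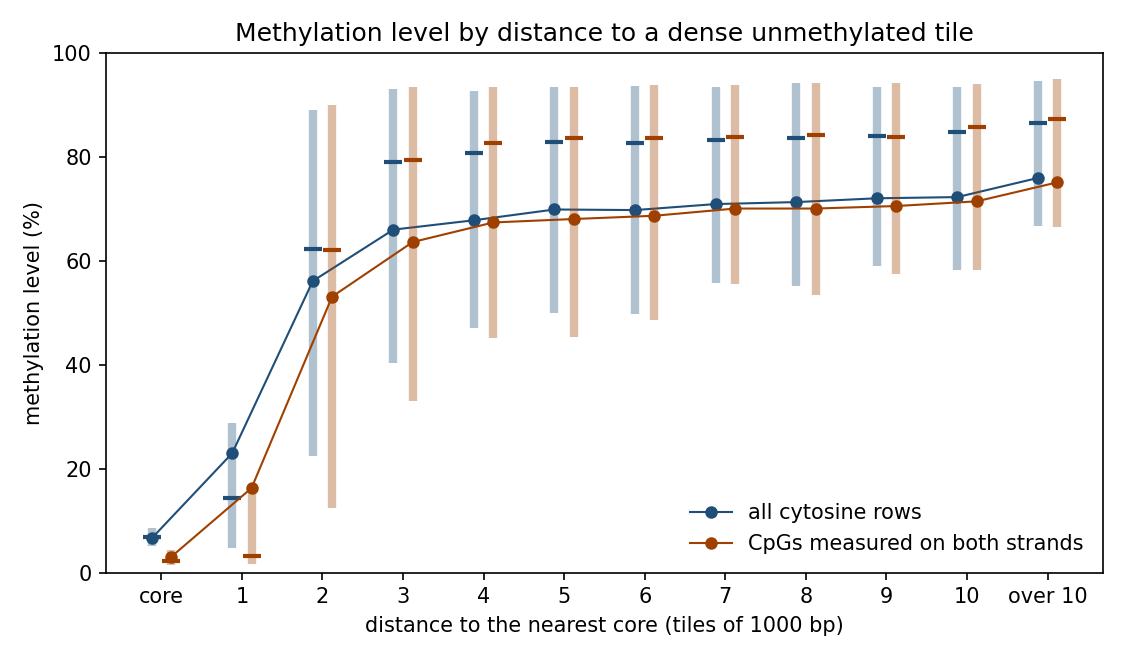
Methylation level (percent) of tiles by distance to the nearest core, in tiles of 1000 bp. Circles are means over 18 rats, horizontal marks are median tiles and bars run from the lower to the upper quartile of tiles, for all measured cytosines and for CpGs measured on both strands. The mean over all cytosines rose from 22.98% at distance 1 to 56.1% at distance 2 and 66.0% at distance 3.

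The mean stands for few single tiles, because most shores lay near an extreme or spread widely between. At distance 1 the median tile was at 14.3%, with 1435 tiles (38.4%) under 10%, 2137 (57.2%) between 10 and 90% and 166 (4.44%) above 90%. For distance 2 the median tile was at 62.3%, and the same classes held 173 (11.9%), 927 (64.0%) and 349 tiles (24.1%). Among other sparse tiles 3.72% were under 10% and 40.9% above 90%. The lower and upper quartiles of distance 2 shores were 22.4% and 89.0%.

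**Figure D2:**
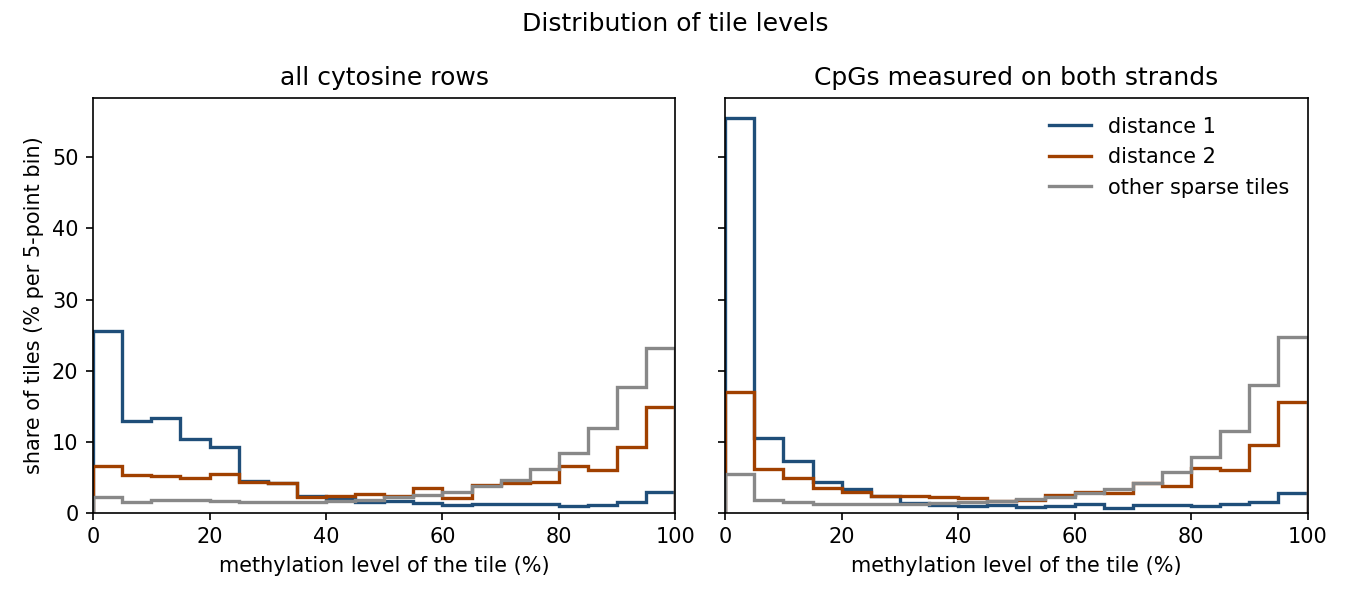
Share of tiles (percent of tiles per 5-point bin) by methylation level (percent), for shores at distance 1, shores at distance 2 and other sparse tiles. The left panel uses all measured cytosines and the right panel CpGs measured on both strands, where 66.1% of distance 1 shores lay under 10%.

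Single cytosines in the shores were more divided than the tile means. At distance 1, 77.7% of cytosines had a mean level under 10%, 12.3% were above 90% and 10.02% lay between. At distance 2 these shares were 39.96%, 28.4% and 31.7%. Within the same 1000 bp, 2013 distance 1 shores (53.9%) held at least 1 cytosine under 10% and at least 1 above 90%, as did 389 distance 2 shores (26.8%).

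Much of this mixture at distance 1 lay in cytosines whose CpG was measured on a single strand. A CpG is a palindrome, and maintenance methylation copies the mark to the opposite strand, so the cytosine on the other strand usually has a like level. Rows without a measured partner made up 16.9% of cytosines at distance 1 (10184), 15.2% at distance 2 (2478), 9.72% in cores and 14.2% in other sparse tiles. Of these unpartnered cytosines, 40.9% were above 90% at distance 1, 45.3% at distance 2, 39.8% in cores and 48.5% in other sparse tiles. Of the cytosines with a measured partner, 6.52% were above 90% at distance 1, 25.3% at distance 2, 1.65% in cores and 44.7% in other sparse tiles. The share above 90% rose by value with distance to the core in both kinds, from 1.65 to 44.7% where both strands were measured and from 39.8 to 48.5% where a single strand was. The mean level rose as well, from 3.19% in cores to 12.03%, 42.2% and 67.8% at distance 1, at distance 2 and in other sparse tiles where both strands were measured, and from 40.01% to 44.1%, 57.3% and 71.4% for unpartnered cytosines. The 2 kinds lay farthest apart in cores and closest in other sparse tiles. The cause of this split was not tested.

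**Figure D3:**
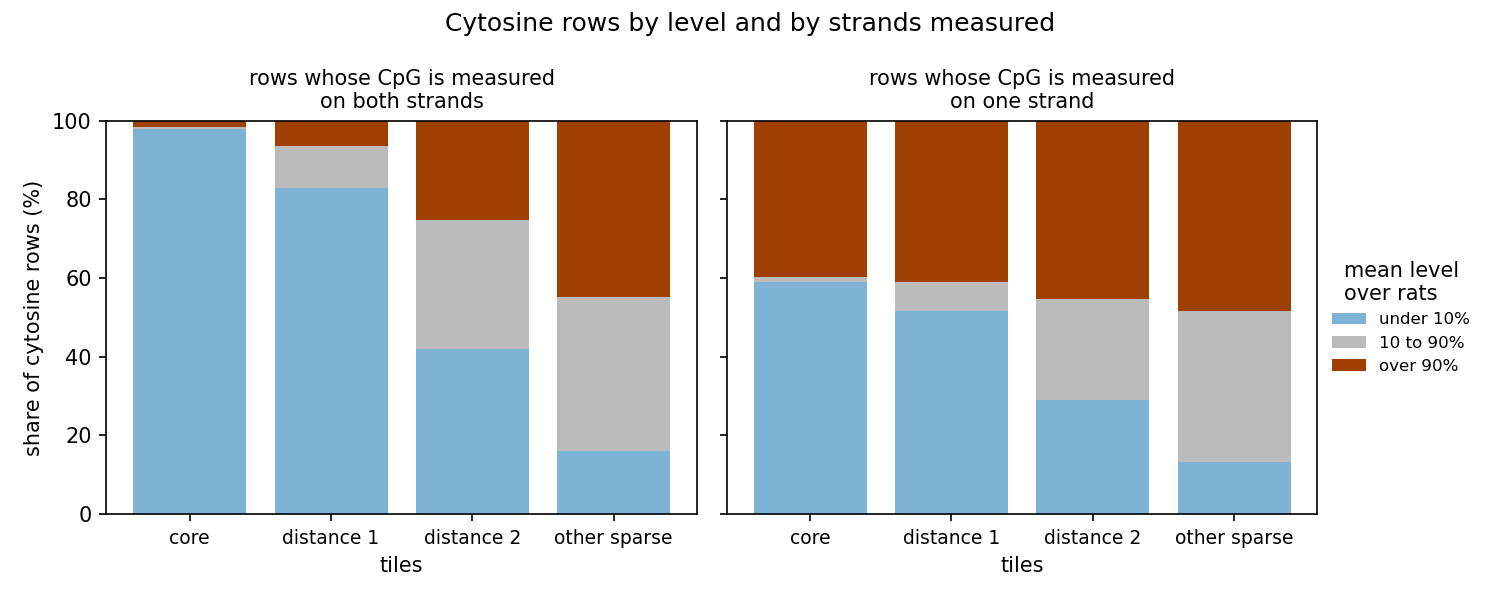
Share of measured cytosines (percent, stacked) with a mean level under 10%, from 10 to 90% and over 90%, in cores, shores and other sparse tiles. The left panel shows cytosines whose CpG was measured on both strands and the right panel those measured on a single strand, of which 39.8% were over 90% in cores.

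With only CpGs measured on both strands, a choice made after this was seen, the shores were lower and more sharply split. Distance 1 was at 16.3% ± 0.524 (SD, n = 18) over the 3308 tiles that kept 3 such cytosines, and its median tile was at 3.27%. Of these tiles 2188 (66.1%) lay under 10%, and 603 (18.2%) held both extremes. Distance 2 was at 53.1% ± 0.412 (SD, n = 18) over 1262 tiles, with a median tile at 62.2%, and cores were at 2.99%. The step was then 36.8 points. The levels of distance 1 shores therefore depend on which cytosines are averaged far more than on the rat, whose range was 22.3 to 23.9% over all cytosines.

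On a finer scale the level climbed within the first 1000 bp. By distance from the edge of the core tile, cytosines averaged 12.2% in the first 250 bp, 21.8% from 251 to 500 bp, 31.3% from 501 to 750 bp and 38.97% from 751 to 1000 bp. It then went back slightly, to 35.3% from 1001 to 1250 bp, and reached 48.2%, 50.9% and 48.8% in the 3 bins out to 2000 bp. The SD over rats was 0.408 to 0.492 points in each bin. Tiles past 1000 bp are counted as shores whether or not the tile between was measured. The bins on either side of that edge thus rest on sets of cores that are only partly the same. Whether this makes the level go back there was not tested. In the 509 distance 1 shores with at least 3 cytosines in each 500 bp, the inner 500 bp averaged 18.1% and the outer 34.9%. The outer part was higher in 359 of these tiles (70.5%), and its lead was 16.5 to 17.1 points in each rat. With CpGs measured on both strands the inner and outer parts were at 11.2% and 30.2% (367 tiles).

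Where a core had shores at both distances on the same side, 486 of 629 such pairs (77.3%) were higher at distance 2. Their means were 26.3% and 55.2%, and the median step was 21.97 points. Across these pairs the level at distance 2 was only loosely tied to that at distance 1 (Pearson's r = 0.30, a description over tiles of the same libraries). In the other pairs the level at distance 2 was the same or lower. The flanks of a core were unlike each other. Of 580 runs with a shore touching each end, 66 had both flanks under 10%, 248 had 1 and 266 had none. The levels of the flanks had r = -0.0756 across runs, with a median difference of 18.4 points, and 205 runs (35.3%) differed by more than 30 points. With CpGs measured on both strands, 164 of 460 runs had both flanks under 10%, 221 had 1 and 75 had none. Distance 1 shores with the core at the lower coordinate averaged 22.7% (1784 tiles) and those with the core at the higher coordinate 23.5% (1890 tiles).

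The level of a shore went with how many cytosines it held. At distance 1 it was 35.2% in tiles of 3 to 9 cytosines (1305 tiles), 19.3% with 10 to 19, 14.7% with 20 to 29 and 12.97% with 30 to 39 (573 tiles). At distance 2 the same classes averaged 66.6%, 52.0%, 30.4% and 21.6%. The denser shores at distance 2 were thus lower than the thinnest at distance 1, and averaged over cytosines in place of tiles the levels were 17.4% and 44.5%. The 28 shores that touched a core on both sides averaged 9.86%. Shores next to a run of 2 cores averaged 33.9% at distance 1 (307 tiles), against 21.97% next to a single core (3408 tiles) and 25.5% next to longer runs (23 tiles). By the number of cytosines in the core itself the level varied less, as distance 1 shores averaged 26.7% beside cores of 40 to 59 cytosines and 19.7% beside cores of 100 or more.

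The level at distance 2 differed with what lay in between. Where the tile between held no measured cytosine the shore averaged 68.8% (476 tiles), and where it held under 3 the average was 67.7% (68 tiles). Where that tile was dense but at or over 10%, the shore averaged 33.2% (276 tiles). Where it was itself a shore, the average was 49.3% beyond a shore under 10% (213 tiles), 55.6% beyond one between 10 and 90% (373 tiles) and 87.0% beyond one above 90% (36 tiles). By chromosome, distance 1 shores ran from 18.9% on chromosome 15 (99 tiles) to 26.2% on chromosome 10 (345 tiles). Distance 2 shores ran from 47.2% on chromosome 4 (62 tiles) to 67.6% on chromosome 11 (34 tiles).

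Single profiles are given as examples. In 26 runs all 4 flanking tiles were shores of no other core. The 5 with the most cytosines over these 4 tiles are described in rn6 coordinates. Shores with more cytosines were lower, so this choice favours low flanks and the 5 do not stand for the other runs. Around the core chr6:75620001-75621000 (7.15%, 58 cytosines) the tiles on the lower side were at 80.6% and 22.05%, outermost first, and those on the higher side at 65.6% and then 9.16%. The last of these, at chr6:75622001-75623000, held 39 cytosines and ran from 7.61 to 10.7% over the 18 rats, so the level dropped again 2 tiles away from the core. Around chr14:35580001-35581000 (5.75%) 3 of the 4 shores were also under 10%, at 4.27%, 3.07% and 3.22%, and the outermost tile on the higher side was at 25.8%. The core chr16:21288001-21289000 (4.83%) had 28.0% and 3.57% on its lower side and 11.4% and 3.87% on its higher side. Around chr19:25775001-25776000 (7.48%, 127 cytosines) the outermost tile on the higher side was at 4.74%, below the 15.96% of the tile that touched the core. Around chr3:95139001-95140000 (5.70%) the lower side was at 27.6% and 35.7% and the higher side at 7.68% and 3.65%.

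Rats differed little at distance 1 and more at distance 2. The median SD within a group was 0.931 points at distance 1, 1.56 points at distance 2, 1.75 points in other sparse tiles and 0.590 points in cores. A range of at least 5 points over the 18 rats was found in 999 distance 1 shores (26.7%), 829 distance 2 shores (57.2%) and 61.5% of other sparse tiles. Among tiles between 10 and 90% with 10 to 19 cytosines, the median SD was 0.988 points at distance 1 (658 tiles), 1.96 points at distance 2 (267 tiles) and 2.27 points in other sparse tiles (18476 tiles). That class still differed in level, at 30.01% in kindling sham rats at distance 1 and 50.6% at distance 2 for tiles of any number of cytosines. At the extremes this order was not found. Among tiles under 10% the median SD was 0.870 points at distance 1, 1.13 points at distance 2 and 0.959 points in other sparse tiles, and among tiles above 90% it was 1.01, 0.976 and 1.02 points. The widest range in a shore was 54.8 points, in a distance 1 tile between 10 and 90%.

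The mean shore level was slightly higher in seizure rats than in sham rats in both models, and none of these differences passed the test over rats. In kindling at distance 1 it was 23.4%, 22.4%, 23.1% and 22.4% in sham rats 1 to 4 and 23.5%, 22.7%, 23.9% and 22.4% in seizure rats 1 to 4. The groups overlapped, with a high and a low pair of rats in each. The means were 22.8% ± 0.498 (SD, n = 4) and 23.1% ± 0.663 (SD, n = 4), a difference of 0.319 points (exact permutation p = 0.429, adjusted p = 0.857 over 12 such tests). At distance 2 the kindling rats ran from 55.4 to 56.3% in sham and from 55.8 to 56.7% in seizure, a difference of 0.321 points (exact permutation p = 0.4, adjusted p = 0.857). Both differences depended on single rats. At distance 1 the difference was 0.503 points without sham rat 1, 0.178 without sham rat 2, 0.1799 without sham rat 4, 0.196 without seizure rat 1, 0.0751 without seizure rat 3 and 0.548 without seizure rat 4. At distance 2 it was 0.119 points without sham rat 2, 0.1959 without seizure rat 1 and 0.169 without seizure rat 3.

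In kainic acid at distance 1 the 7 sham rats had a lowest value of 22.3%, a median of 22.9% and a highest value of 23.3%. The 3 seizure rats had 23.2%, 23.3% and 23.3%, inside or just above the upper end of the sham range. The means were 22.9% ± 0.384 (SD, n = 7) and 23.3% ± 0.101 (SD, n = 3), a difference of 0.414 points (exact permutation p = 0.1, adjusted p = 0.6). Without sham rat 6 the difference was 0.493 points (exact permutation p = 0.0476, adjusted p = 0.571). At distance 2 the sham rats ran from 55.5 to 56.3% with a median of 56.0%, and the seizure rats had 56.0%, 56.4% and 56.6%, a difference of 0.385 points (exact permutation p = 0.1, adjusted p = 0.6), which was 0.251 points without seizure rat 3. With 4 against 4 rats the smallest p is 0.0286, and with 7 against 3 it is 0.0167. The sham groups of the models differed by 0.0409 points at distance 1 and 0.0265 points at distance 2 (kainic acid minus kindling, adjusted exact permutation p = 0.965 for both).

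**Figure D4:**
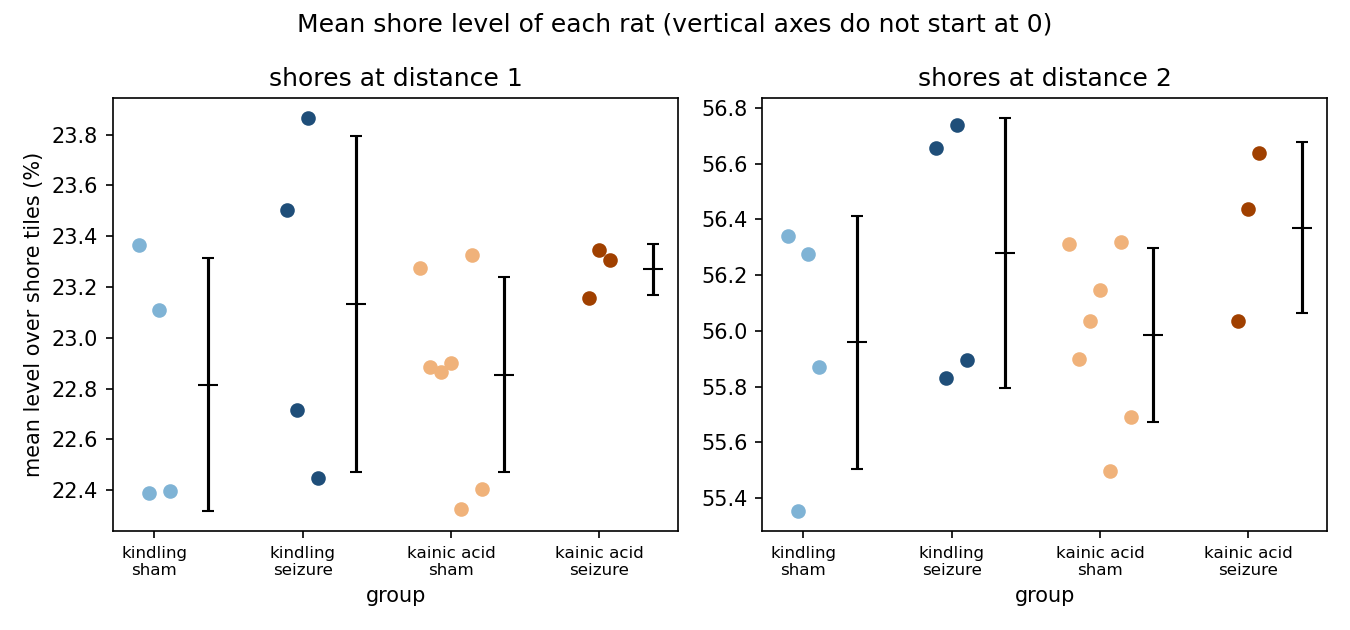
Mean methylation level (percent) over the 3738 shores at distance 1 and the 1449 shores at distance 2, with a point for each rat by group. Black marks are group means with SD, and the vertical axes do not start at 0. Seizure means lie 0.319 to 0.414 points above the sham means, and the groups overlap.

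The differences were not shown to belong to the shores. The shore level minus that of other sparse tiles in the same rat differed by 0.0969 points at distance 1 and 0.0988 points at distance 2 in kindling, and by 0.173 and 0.144 points in kainic acid (adjusted exact permutation p between 0.8 and 0.965). The step from distance 1 to distance 2 was 33.1 points in every group, and its seizure minus sham difference was 0.00196 points (kindling) and -0.0291 points (kainic acid) (adjusted exact permutation p = 1 and 0.965). Cores differed by value in the same direction, from 6.43% ± 0.523 (SD, n = 4) to 6.68% ± 0.660 (SD, n = 4) in kindling and from 6.48% ± 0.386 (SD, n = 7) to 6.88% ± 0.126 (SD, n = 3) in kainic acid. With the core level of each rat subtracted, the seizure minus sham difference was 0.0729 points at distance 1 and 0.0748 points at distance 2 in kindling, and 0.0156 and -0.0135 points in kainic acid. The rule used the core level, so these values are given as a description without a p.

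Across the 18 rats the shore level is shown against the core level as a description, with no test, because the core level chose the members. At distance 1 Pearson's r was 0.987 and Spearman's rho 0.959, with a slope of 0.988 points per point. Without the 2 rats farthest from the median core level r was 0.982, and within the 7 kainic acid sham rats it was 0.988. The other groups hold too few rats for a value of their own, and with group means removed r was 0.988. At distance 2 r was 0.864 and rho 0.882, with a slope of 0.743, and r was 0.854 without the 2 farthest rats and 0.916 within the kainic acid sham rats. Both levels come from the same libraries.

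**Figure D5:**
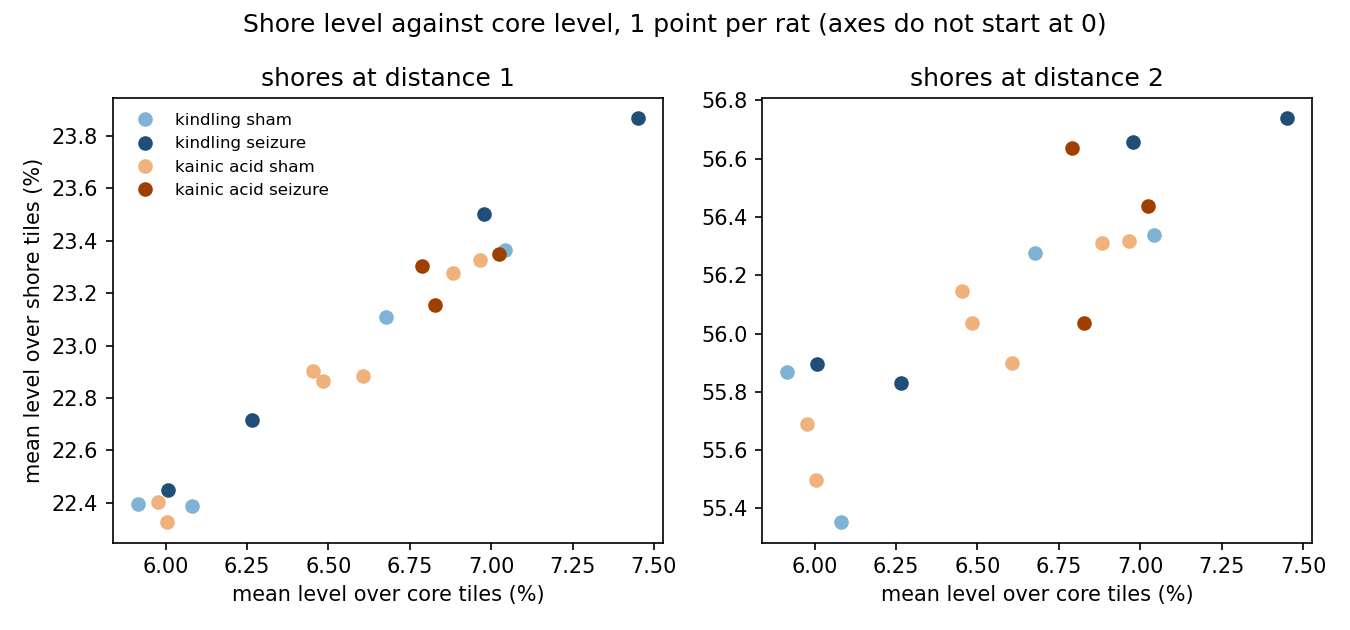
Mean level of shores (percent) at distance 1 and at distance 2 against the mean level of cores (percent), with a point for each of 18 rats, coloured by group. The axes do not start at 0. Points lie close to a line at distance 1 (r = 0.987) and more loosely at distance 2 (r = 0.864).

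The share of values that are exactly 0 also moved with the shore level. It was counted over all measured cytosines, those of cores and shores included. A higher share thus goes with a lower level partly by construction, and the relation is a description. The depth behind each value is unknown, and the share of values that are exactly 0 was lowest in kindling seizure rat 1 (8.89%) and highest in kindling sham rat 4 (25.4%). This share was 17.6% in the sham and 13.4% in the seizure group of kindling (SD 6.39 and 5.31), and 13.8% in the sham and 10.2% in the seizure group of kainic acid (SD 3.63 and 1.91). Over the 18 rats the distance 1 level was lower where this share was higher (r = -0.804 and rho = -0.851). At distance 2 the relation was r = -0.630 and rho = -0.730. Without the 2 farthest rats r was -0.784 and -0.702, and within the kainic acid sham rats it was -0.913 and -0.927. The part of this share and of the core level in the group differences was not tested.

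The small group differences were found by value in shores of low and intermediate level and not in shores above 90%. Distance 1 shores under 10% were at 3.63% in kindling sham and 3.87% in kindling seizure rats, and at 3.69% and 4.10% in kainic acid rats. Distance 1 shores between 10 and 90% had a kindling difference of 0.395 points and a kainic acid difference of 0.462 points, beside 0.0646 and -0.108 points in shores above 90%. Distance 2 shores under 10% were at 4.64% and 4.91% in kindling sham and seizure rats and at 4.65% and 5.23% in those of kainic acid, differences of 0.263 and 0.575 points. At distance 2 the intermediate class differed by 0.471 and 0.473 points, and the class above 90% by -0.0464 and 0.0563 points. These classes were not tested against each other.

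No shore tile passed a test of its own. Of the 84600 tiles whose range over rats was at least 5 points, 1828 were shores (999 at distance 1 and 829 at distance 2), and limma was fitted to all of them. At a Benjamini-Hochberg adjusted p under 0.05, 0 shores were called in kindling, in kainic acid, in the mean of both models, in the difference between models and between the sham groups. In each of these comparisons 0% of all tiles tested were called. The smallest adjusted p (limma) of a shore was 0.683 in kindling, 0.9999 in kainic acid, 0.99 for the mean, 0.775 for the difference between models and 0.457 between sham groups. The median shore had a 95% interval of 3.63 points to either side of its kindling difference and 3.54 points for kainic acid. These intervals hold for a single test and are not adjusted for the 84600 tiles. They therefore do not give the smallest difference that could be called. Wider differences also went uncalled, as the values of tiles named below show.

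At an unadjusted p under 0.05, the share of shores was by value not above that of all tiles in most settings, and above it in some. In kindling it held for 75 shores (4.10%), against 5.71% of all tiles. Of these 53 were higher in seizure rats (2.90%, against 3.59% of all tiles) and 22 lower (1.20%, against 2.12%). In kainic acid it held for 59 (3.23%), against 3.54%, with 45 higher (2.46%, against 2.13%) and 14 lower (0.766%, against 1.41%). For the mean of both models it held for 79 (4.32%), against 4.56%, with 65 higher (3.56%, against 3.07%) and 14 lower (0.766%, against 1.48%), and between the sham groups for 97 (5.31%), against 6.35%. For the difference between models it held for 66 (3.61%), against 4.75%. With these settings the shore share was by value the lower in all 5 comparisons. Without the range filter it was the higher in kainic acid (4.95%, against 4.06% of all tiles) and for the mean (6.32%, against 4.92%). The kindling count moved by over 1.5 times without seizure rat 4 (191 shores, or 10.4%, against 9.36% of all tiles) or sham rat 1 (122 shores, or 6.67%, against 7.53% of all tiles). The count for the mean of both did so without kindling seizure rat 4 (169 shores, or 9.25%, against 8.08%). Over the 132 alternatives for the 5 comparisons, the shore share was above that of all tiles in 14, of which 9 were for the mean, 3 for kainic acid and 2 for kindling. The median shore had a difference of 0.406 points (kindling) and 0.450 points (kainic acid), beside 0.299 and 0.310 points over all tiles tested. Higher values in seizure rats were found in 59.8% of tested shores in kindling and 62.4% in kainic acid, beside 56.1% and 57.5% of all tiles. Sham and seizure rats did not overlap in 34 shores of each model (1.86%, 24 higher and 10 lower in each), beside 2.44% of all tiles in kindling and 1.49% in kainic acid.

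Shores with the smallest p were named for each direction, and their values are given without a call. In kindling, the shore chr2:28046001-28047000 (distance 2, 4 cytosines) was at 23.03%, 22.8%, 24.2% and 29.9% in sham rats and 32.5%, 37.3%, 37.5% and 33.9% in seizure rats. All 4 seizure rats were above all sham rats, by 10.3 points ± 2.56 (SE) on average (limma adjusted p = 0.683). In kainic acid this tile was at 32.6% in sham and 32.01% in seizure rats, and the kindling sham rats were the lowest group. The shore chr19:52498001-52499000 (distance 1, 5 cytosines) had the same pattern, with 12.6 to 17.99% in kindling sham, 22.7 to 26.7% in kindling seizure, while the kainic acid means were 21.5% (sham) and 22.1% (seizure). So did chr6:111130001-111131000 (distance 1, 4 cytosines), with 9.46 to 11.7% in kindling sham, 12.5 to 16.9% in kindling seizure, and 13.05% and 13.1% in the kainic acid groups. In all 3 the kindling sham mean stood below the other 3 groups. The tiles were chosen by smallest p for kindling seizure above kindling sham rats, which favours a low kindling sham mean. These contrasts share the kindling sham rats.

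Among tiles lower after kindling, chr5:17063001-17064000 (distance 2, 9 cytosines) was at 24.8%, 24.3%, 32.8% and 31.9% in sham rats and 22.4%, 20.4%, 18.6% and 23.2% in seizure rats. The groups did not overlap, and the difference was -7.28 points ± 2.15 (SE, limma adjusted p = 0.772). In kainic acid the same tile was at 25.3% in sham and 21.6% in seizure rats, where the groups overlapped. It also had the smallest p among tiles lower in the mean of both models (-5.49 points, limma adjusted p = 0.99). The shore chr8:22053001-22054000 (distance 2, 5 cytosines) differed by -8.17 points in kindling on average, from 16.03% to 7.86%, with seizure rat 4 at 15.1% and the other 3 at 5.13 to 5.84%. The remaining tiles of this set were chr19:30792001-30793000 (96.1% in sham and 92.6% in seizure rats), chr5:169296001-169297000 (95.6% and 90.97%) and chr7:129949001-129950000 (9.56% and 5.53%). They held 5 to 8 cytosines, and the groups overlapped in the last 2 of them.

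The tile nearest to a shared difference was chr5:35829001-35830000 (distance 2, 5 cytosines), a low shore. Kindling sham rats had 3.22%, 1.82%, 0% and 2%, and kindling seizure rats had 3.48%, 5.04%, 8.33% and 6.57%, with no overlap. Kainic acid sham rats ran from 0.909 to 6.74% with a median of 2.82%, and the seizure rats had 6.95%, 5.62% and 7.82%, so that a single sham value lay inside the seizure range. The difference was 4.09 points in kindling, 3.71 points in kainic acid and 3.90 points ± 0.896 (SE) in the mean of both (limma adjusted p = 0.99). Fewer than 3 of its cytosines had a measured partner on the other strand.

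In kainic acid, chr6:104341001-104342000 (distance 1, 6 cytosines) was at 48.6 to 58.4% in sham rats, with a median of 53.8%, and at 61.9%, 62.3% and 59.9% in seizure rats. The groups did not overlap and differed by 7.36 points ± 2.05 (SE, limma adjusted p = 0.9999). In kindling the same tile was at 55.9% and 56.2%. The shore chr1:141187001-141188000 (distance 1, 14 cytosines, all on CpGs measured on both strands) was at 38.6 to 47.6% in sham rats and at 51.2%, 47.4% and 50.7% in seizure rats, overlapping at the edge, with a difference of 6.01 points ± 1.76 (SE). The shore chr1:84144001-84145000 (distance 1, 16 cytosines) was at 7.97 to 11.05% in sham and 12.0 to 14.5% in seizure rats, without overlap. With the 12 cytosines on CpGs measured on both strands, its difference was 5.93 points in place of 4.23 points. The shore chr7:3335001-3336000 (distance 2, 4 cytosines) differed by 10.5 points, from 69.1% to 79.6%, and by 6.02 points in kindling.

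Among shores lower after kainic acid, chr1:243665001-243666000 (distance 1, 7 cytosines) had the smallest p. It was at 23.96 to 28.95% in sham rats, and at 14.2%, 25.2% and 17.98% in seizure rats, a difference of -7.43 points ± 2.01 (SE, limma adjusted p = 0.9999). With the 6 cytosines measured on both strands its difference was 1.57 points, so that a single unpartnered cytosine set the direction of the tile. The shore chr20:7906001-7907000 (distance 2, 11 cytosines) was at 78.1 to 90.6% in sham and 73.7 to 76.1% in seizure rats, without overlap, a difference of -9.53 points ± 3.13 (SE), which was -15.0 points with the 6 cytosines measured on both strands. The shore chr3:123234001-123235000 (distance 2, 10 cytosines) was at 70.8% and 66.7%, and chr10:84787001-84788000 (distance 2, 8 cytosines) at 82.3% and 77.4%. The shore chr2:144465001-144466000 (distance 2, 3 cytosines) moved in opposite directions by value, by 4.96 points (kindling) and -3.90 points (kainic acid). It had the smallest p among shores for the difference between models (-8.86 points ± 2.12 SE, limma adjusted p = 0.775) and for kainic acid sham above kindling sham (5.16 points, limma adjusted p = 0.457).

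For the mean of both models, chr14:36556001-36557000 (distance 2, 11 cytosines) was higher by 4.4 points, chr2:189255001-189256000 (distance 1, 9 cytosines) by 4.43 points and chr20:46430001-46431000 (distance 2, 18 cytosines) by 3.54 points. The last was at 30.01% and 34.8% in kindling sham and seizure rats, and at 31.0% and 33.3% in those of kainic acid. Lower by value were chr10:39403001-39404000 (distance 2, 3 cytosines, -12.6 points), chr12:37442001-37443000 (distance 2, 4 cytosines, -3.34 points) and chr1:97887001-97888000 (distance 2, 4 cytosines, -3.65 points). Between the sham groups, chr10:95694001-95695000 (distance 1, 10 cytosines) was lower in kainic acid by 13.9 points ± 3.66 (SE), with 54.6 to 75.2% in kindling sham and 45.4 to 57.1% in kainic acid sham rats. The shore chr1:165965001-165966000 (distance 2, 10 cytosines) was higher in kainic acid sham rats by 8.91 points ± 2.32 (SE, limma adjusted p = 0.457). Without kindling sham rat 3, which stood at 81.1% beside 65.2 to 68.7% in the other 3 rats of its group, it was 12.4 points and past the threshold. The shore chr7:11398001-11399000 (distance 2, 5 cytosines) was lower in kainic acid sham rats by 7.28 points.

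No single cytosine of a shore passed either. Of 800753 cytosines with a range of at least 10 points over the rats, 18866 lay in shores, and 0 of these were called in kindling or in kainic acid (limma). Of all cytosines tested, 0% were called in kindling and 0.000624% in kainic acid. At an unadjusted p under 0.05 there were 1038 shore cytosines in kindling (5.50%, beside 5.72% of all) and 777 in kainic acid (4.12%, beside 3.82%). The smallest adjusted p (limma) of a shore cytosine was 0.555 in kindling and 0.0530 in kainic acid.

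The cytosines closest to the threshold are named after their values were seen. Both strands of a CpG at position 16660861 of chromosome 9, in the distance 2 shore chr9:16660001-16661000, were nearly unmethylated in kainic acid sham rats and partly methylated after kainic acid. On the plus strand 6 of 7 kainic acid sham rats were at 0% and sham rat 6 at 9.30%, while the seizure rats had 12.5%, 31.1% and 31.6% (limma adjusted p = 0.0530). On the minus strand, at position 16660862, the sham rats ran from 0 to 6.25% and the seizure rats had 22.9%, 36.8% and 20.8% (limma adjusted p = 0.0562). No sham rat of this model reached a seizure rat on either strand, and kindling seizure rats were at 0 to 3.17%. Kindling sham rat 1 was at 8.33% and 19.5%. The plus strand passed the threshold without kindling sham rat 1, without kainic acid sham rat 6 or without kainic acid seizure rat 1, and the minus strand without kindling sham rat 1. These were 2 of the 14 cytosines of that tile, and no other had a difference of over 10 points that way.

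The unpartnered cytosine at position 243665144 of chromosome 1 was the one that set the direction of its tile. It was at 71.4 to 98.9% in kainic acid sham rats with a median of 96.4%, and at 17.6%, 72.4% and 5.56% in seizure rats (limma adjusted p = 0.0599). Kindling rats were all between 94.3 and 100%. It passed the threshold without kainic acid seizure rat 2, without kainic acid sham rat 2 and with a range filter of 20 points. A cytosine at position 226233903 of chromosome 1 (distance 1, no measured partner) was at 53.4%, 91.6%, 97.5% and 28.9% in kindling sham rats and at 1.81 to 3.80% in kindling seizure rats (limma adjusted p = 0.555). It passed without kindling sham rat 4. In kainic acid it ran from 0.962 to 35.8% in sham and from 3.88 to 30.3% in seizure rats. All kindling sham rats but rat 4 stood above every rat of the other groups, and rat 4 lay inside both kainic acid ranges. A minus-strand cytosine at position 6037788 of chromosome 8, also unpartnered, was at 66.7%, 61.8% and 97.1% in kainic acid seizure rats and at 96.8 to 100% in every other rat, and passed without kainic acid seizure rat 3. The cytosine at position 7211874 of chromosome 16 (distance 1) had no measured partner either. There the kainic acid sham rats had 0 to 12.5% and the seizure rats 33.3%, 21.7% and 26.7% (limma adjusted p = 0.135), and kindling rats ran from 0 to 23.5%.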

How the data were processed

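The authors deposited methylation fractions (beta values) per cytosine, each strand on its own row, with 2330883 cytosines, 18 rats and 0 missing values. Per the submitters' processing notes, FastQC, Trim Galore, Bismark, Bowtie2 and methylKit were used with build rn6, without versions or roles. The sources used here do not give the minimum coverage, and the fractions come without read counts, so depth is unknown and no interval for single values is given. The values were multiplied to percent. 0 columns belonged to other samples.

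Tile means were averaged per rat with equal weight per tile, and groups were compared by two-sided exact permutation tests, adjusted by the Benjamini-Hochberg method over 12. Relations across rats are given as descriptions without a p. The core level chose the members, and the share of values at 0 includes the cytosines of cores and shores. Tiles with at least 3 cytosines and a range of at least 5 points, and cytosines with a range of at least 10 points, were fitted with limma 3.58.1 (R 4.3.3, data.table, version 1.17.8) over all 4 groups, and called at an adjusted p under 0.05. The fit was run on simulated data in which only tiles of intermediate level were changed. That run does not show how well a change in low shores would be found. Sample titles number the rats within each group, and the p-values measure the spread between these rats. Tiles were named by smallest p, 5 per direction for kindling, kainic acid and their mean, and 2 each for the difference between models and the sham groups. Members and lists were chosen with earlier results of these data known. Alternatives covered the thresholds and tile grid of the rule, weighting, strands, filters, the log2 odds scale, array weights, the replicate number, fits within 1 model and each rat left out. Work outside limma used Python 3.11.15, numpy 2.4.6, pandas 2.3.3, scipy 1.17.1 and matplotlib 3.10.9.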

Additional observations from a re-analysis of the deposited data

Results flagged for a closer look

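In 96 groups of rats over the 27 shore tiles named in the report, an outlier rule flagged 3 rats as apart from the rest of their group. Chance alone flags about 1 in 20 groups, a rate that does not allow for the choice of these tiles by smallest p. The rule did not flag every wide gap, such as that of kindling sham rat 3 in a shore named above for the sham groups. At chr8:22053001-22054000 kindling seizure rat 4 was at 15.1%, against 5.13 to 5.84% in the other 3 rats of its group, and within the 10.6 to 18.8% of kindling sham rats. At chr6:104341001-104342000 kindling seizure rat 4 was at 52.7%, against 56.9 to 57.5% in the others. At chr14:36556001-36557000 kainic acid sham rat 3 was at 90.4%, against 82.2 to 85.3% in the other 6 sham rats and 88.1 to 89.2% in the kainic acid seizure rats.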

How the results depend on the processing

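Of 640 alternative values for the main results, 562 kept their direction and side of the threshold. The level at distance 1 was 25.3% with a core minimum of 30 cytosines, 19.4% with 60, 16.4% with a shore minimum of 10, 17.4% with equal weight per cytosine, 28.2% with strands averaged, 16.4% with the core level subtracted, 16.3% with CpGs measured on both strands and 16.1% with the rule applied to those. At distance 2 these were 58.2%, 52.8%, 42.1%, 44.5%, 55.6%, 49.5% and, with CpGs measured on both strands, 53.1%. It was also 49.6% with cores under 5% and 55.5% with the grid shifted by 500 bp. The step between distances ran from 25.6 to 39.6 points over these settings, upward in every rat. The cause of the reversals below was not tested. Each concerns a value that did not pass. The kindling difference of the step was -0.0141 points with CpGs measured on both strands, -0.114 with the rule applied to those, -0.000833 with cores under 5%, -0.00436 with 30 cytosines and -0.0735 with the shifted grid. The kainic acid difference of the step was 0.0503 with the shifted grid, 0.0245 with strands averaged and 0.0277 with the replicate block. The sham difference at distance 2 was -0.0152 with cores under 5%, -0.00743 with the shifted grid, -0.0078 with the rule applied to both-strand CpGs, -0.00286 with strands averaged and -0.0264 with the core level subtracted. That at distance 1 was -0.0120 with the core level subtracted, and the kainic acid difference at distance 2 was then -0.0135. The kainic acid difference of chr1:243665001-243666000 was 1.57 points with both-strand CpGs. The shore tiles at an unadjusted p under 0.05 (kindling, kainic acid, mean, difference between models, sham groups) numbered 218, 257, 328, 178 and 192 without a range filter (4.203, 4.95, 6.32, 3.43 and 3.70% of shores, against 5.09, 4.06, 4.92, 4.32 and 5.54% of all tiles), 37, 19, 35, 27 and 41 with a filter of 10 points (5.01, 2.57, 4.74, 3.66 and 5.56%, against 5.74, 3.46, 4.34, 4.80 and 6.49%), and 25, 26, 32, 18 and 26 with at least 10 cytosines per tile (3.63, 3.78, 4.65, 2.62 and 3.78%, against 5.52, 3.28, 4.26, 4.66 and 5.81%), where fewer tiles or more were tested. With array weights they were 122 in kindling (6.67%, against 6.59%), 92 in kainic acid (5.03%, against 5.36%) and 134 for the mean (7.33%, against 6.45%). With a filter of 20 points, 1 shore cytosine was called in kainic acid. With rats left out in turn, called shore cytosines numbered 0 to 2 in kainic acid and 0 to 1 in kindling, and called shore tiles 0 to 1 between the sham groups. Shores at an unadjusted p under 0.05 then ran from 60 to 191 in kindling and 61 to 169 for the mean. The share of all tiles moved as well. In kindling it was 5.005% beside 3.28% of shores without seizure rat 3, and 9.36% beside 10.4% without seizure rat 4. For the mean it was 4.37% beside 3.34% of shores without kindling sham rat 3, and 8.08% beside 9.25% without kindling seizure rat 4. With each rat left out, the difference of the step ran from -0.0980 to 0.112 points in kindling and -0.145 to 0.0808 in kainic acid. The lead over other sparse tiles at distance 1 in kindling then ran from -0.0851 to 0.281. The sham difference ran from -0.101 to 0.224 at distance 1 and -0.176 to 0.153 at distance 2. The replicate numbers are shared between sham and seizure rats, and the correlation of their deviations over 1828 shores was over 0.1 in 2 of 4 kindling pairs (-0.0268 to 0.215) and in 0 of 3 kainic acid pairs (-0.0521 to -0.00103), so the numbers were not taken as pairs. A sham rat correlated best with its own number in 2 of 4 and in 0 of 3 cases. The mean shore level was higher in the seizure rat of 4 of 4 same-numbered kindling pairs at both distances, and of 2 of 3 kainic acid pairs. With the replicate block, 0 shores were called, and 74, 50, 62, 66 and 84 had an unadjusted p under 0.05. These were 4.05, 2.74, 3.39, 3.61 and 4.60% of shores, against 6.02, 3.86, 4.35, 5.06 and 6.37% of all tiles. The difference was then 0.319 points at distance 1 and 0.321 points at distance 2 in kindling (exact sign-flip permutation p = 0.125 for both, the smallest 4 pairs can give). In kainic acid it was 0.260 and 0.288 points (exact sign-flip permutation p = 0.5 for both). The settings with both-strand CpGs were chosen after the data were seen. Unknown depth limits all of these values.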
